A study of Mus musculus with 9 samples.

Results

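The inflammasome and pyroptosis genes described here were *Nlrp3*, *Aim2*, *Nlrc4*, *Nlrp1b*, *Pycard*, *Casp1*, *Casp4* and *Gsdmd*. They were found by gene symbol, and all 8 of them, out of 22064 genes listed, had values. All 8 also passed the filter on low counts, as did 14108 of the 18325 genes with values. RNA was sequenced in bulk from neutrophils sorted from lungs of female BALB/c mice, which the study's methods give as 6 to 8 weeks old at purchase. In the tumour-bearing mice, 4T1-LM3 cells had been injected into the mammary fat pad, and lungs were taken at the macrometastatic stage, defined in the study as the fourth week after injection or later. These cells descend from the 4T1 mammary carcinoma line of the mouse, and 3 rounds of selection in mice had made them home to the lung. There were 3 groups of 3 libraries. They held CD45+ Ly6g-high neutrophils from macrometastatic lung (Ly6Ghi), CD45+ Ly6g-low neutrophils from macrometastatic lung (Ly6Glow) and CD45+ Ly6g-high neutrophils from normal lung (NL). The mice of the NL group carried no label of an injection. The assignment of these libraries rests on their titles and treatment fields, because their description fields name the Ly6g-high group alone. The sources used here do not say whether a library came from 1 mouse or from several. The sum of estimated counts of a library lay between 17004235 and 17841807 in Ly6Ghi, between 15267177 and 16553629 in Ly6Glow and between 16570344 and 17171045 in NL.

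Inflammasomes are cytosolic complexes that turn the detection of infection or damage into protease activity. A sensor such as NLRP3, AIM2, NLRC4 or NLRP1B assembles, in most cases through the adaptor ASC (encoded by *Pycard*), a platform on which pro-caspase-1 is activated. Caspase-1 then cleaves pro-interleukin-1 beta and pro-interleukin-18 and also gasdermin D, whose freed amino-terminal part forms pores in the plasma membrane, and the lytic death that can follow is called pyroptosis. Mouse caspase-11, encoded by *Casp4*, binds cytosolic lipopolysaccharide directly and cleaves gasdermin D in what is termed the non-canonical pathway. Neutrophils can release interleukin-1 beta without dying, and gasdermin D has also been linked to the release of neutrophil extracellular traps. RNA levels do not show assembly, cleavage or pore formation.

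The labels were first compared with RNA markers. *Ly6g* RNA did not follow the sort between the groups from macrometastatic lung. It stood at 379.8, 361 and 380.1 CPM (counts scaled to normalised library size) in the Ly6Ghi libraries and at 385, 403 and 394 CPM in the Ly6Glow libraries. The log2 fold change of Ly6Glow over Ly6Ghi was 0.08 ± 0.03 (SE; edgeR adjusted p = 0.0577), and the ratio of mean FPKM (fragments scaled to transcript length and library size) pointed the other way, at 0.895. The sort used Ly6g protein, so the groups are named by their sort label below. In NL, also sorted as Ly6g-high, *Ly6g* RNA was 120.2, 120.2 and 118 CPM, and Ly6Ghi was above NL by a log2 fold change of 1.65 ± 0.04 (± SE from edgeR; adjusted p = 1.00e-20).

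The libraries also differed in markers of other cells. The 12 neutrophil markers, led by *S100a9*, summed to 92114 ± 1185 CPM in Ly6Ghi, 84375 ± 975 in Ly6Glow and 21247 ± 107 in NL (mean ± SD, n = 3 each). NL therefore carried the lowest sum of neutrophil markers in all 3 of its libraries. The 10 epithelial markers, led by *Sftpc*, summed to 148 ± 4.17, 155 ± 3.20 and 1572 ± 77.1 CPM in the same order. The 6 endothelial markers, led by *Pecam1*, summed to 144 ± 2.29, 179 ± 3.85 and 1007 ± 39.4 CPM, and the 6 fibroblast markers, led by *Col3a1*, to 53.4 ± 3.83, 55.1 ± 3.09 and 537 ± 16.5 CPM. Structural lung cells thus had their highest marker sums in NL. Cells had been stained for CD45, CD11b and Ly6g before sorting, a gate that does not select these structural cells, and how their RNA came into the libraries was not tested. The 12 alveolar macrophage markers, led by *Chil3*, summed to 1548 ± 28.6 CPM in Ly6Ghi, 335 ± 10.6 in Ly6Glow and 1778 ± 12.1 in NL. *Chil3* alone made up 1274, 277 and 964 CPM of these sums, and 9 of the 12 markers were called lower in Ly6Ghi than in NL (median -2.31), so the near sums of Ly6Ghi and NL do not describe the list. The 12 monocyte and macrophage markers, led by *Csf1r*, summed to 761 ± 3.80, 707 ± 17.4 and 1296 ± 15.2 CPM, and the 8 dendritic cell markers, led by *Itgax*, to 80.8 ± 1.54, 60.4 ± 1.41 and 432 ± 15.7 CPM. The sums of macrophage and dendritic cell markers were thus also highest in NL, and that of alveolar macrophage markers was lowest in Ly6Glow. *Csf1r* itself was highest in Ly6Glow, at 299 CPM against 217 in Ly6Ghi and 261 in NL. Of the 12 monocyte and macrophage markers, 8 were called lower and 1 higher in Ly6Ghi than in NL, and as many in Ly6Glow.

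The 6 eosinophil markers, led by *Siglecf*, summed to 115 ± 4.37 CPM in Ly6Ghi, 37.1 ± 0.856 in Ly6Glow and 42.3 ± 1.49 in NL. The 8 basophil and mast cell markers, led by *Gata2*, gave 44.4 ± 1.07, 27.0 ± 1.68 and 28.1 ± 1.56 CPM. The 5 B cell markers with values, led by *Cd79a*, gave 46.8 ± 0.532, 28.9 ± 0.993 and 28.5 ± 1.26 CPM. The sums of these 3 lists were highest in Ly6Ghi. *Siglecf* (31.4, 29.5 and 38.7 CPM) and *Gata2* (14.4, 9.78 and 24.4 CPM), in the same order of groups, were themselves highest in NL. The 9 T and NK cell markers with values, led by *Cd3d*, gave 50.2 ± 1.34, 33.9 ± 0.312 and 77.2 ± 1.37 CPM. *Cd3d* itself was highest in Ly6Ghi, at 24.6 CPM against 15.1 in Ly6Glow and 17.2 in NL. The 5 erythroid markers with values, led by *Hba-a2*, gave 0.203 ± 0.0387, 0.287 ± 0.103 and 11.9 ± 1.91 CPM. *Hba-a2* was at 0 in every Ly6Ghi and Ly6Glow library, and *Hbb-bt* was at 0 in every Ly6Ghi and NL library. No marker outside the erythroid list was at 0 in all libraries of a group. Several of the genes below are also active in macrophages and dendritic cells, and the part of these cells in the results was not tested. In bulk RNA, fewer cells of a type and less RNA per cell cannot be told apart.

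**Figure D1:**
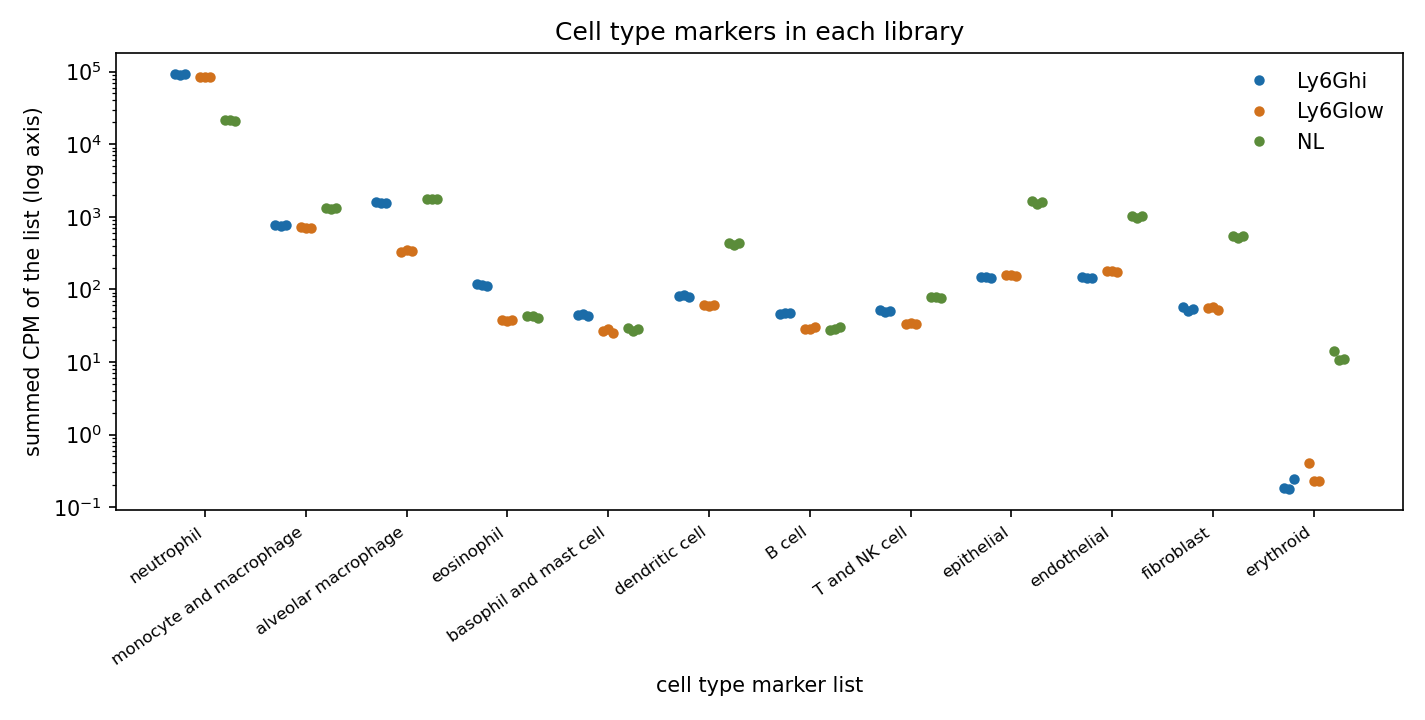
Summed CPM of each cell type marker list (log axis) in the 9 libraries, 1 point per library, coloured by group. Neutrophil markers sat near 21247 CPM in NL against 92114 in Ly6Ghi and 84375 in Ly6Glow, while epithelial, endothelial and fibroblast markers were highest in NL.

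The replicates of a group lay close together. Every pair of replicates nevertheless differed by more than counting noise, with a chi-square of 1.41 to 5.30 times its degrees of freedom, so that no library was counted as a copy of another. The largest values, 5.30 and 4.05, belonged to the pairs that included NL replicate 2, against 1.49 for the pair of NL replicates 1 and 3. Without NL replicate 2, no call of the 8 genes changed, and the direction turned for *Aim2* alone (below).

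The level of each gene per transcript length was read from the deposited FPKM. In NL, *Nlrp3* was the most abundant of the 8 at 215 ± 4.74 FPKM (SD, n = 3), which made up 55.0 ± 1.00% of their summed FPKM. *Casp4* followed at 70.7 ± 0.983, *Gsdmd* at 51.4 ± 0.677 and *Casp1* at 29.1 ± 2.06 FPKM. In Ly6Ghi the first place went to *Casp4* at 88.1 ± 0.452 FPKM (31.8 ± 0.0868% of the sum), ahead of *Nlrp3* at 66.1 ± 0.276 (23.9 ± 0.223%), *Gsdmd* at 62.6 ± 1.70 (22.6 ± 0.521%) and *Casp1* at 35.6 ± 1.70 FPKM. In Ly6Glow *Nlrp3* and *Casp4* stood side by side at 134 ± 1.09 and 127 ± 6.87 FPKM, and the lowest *Nlrp3* library, at 133.2 FPKM, lay just above the highest *Casp4* library, at 132.8 FPKM. The remaining genes were far less abundant in every group. *Pycard* stood at 10.2 ± 0.560 FPKM in Ly6Ghi, 5.63 ± 0.311 in Ly6Glow and 3.73 ± 0.356 in NL, and *Aim2* at 7.15 ± 0.263, 7.96 ± 0.257 and 11.1 ± 0.961 FPKM. *Nlrp1b* ran from 5.22 ± 0.275 in Ly6Ghi to 7.25 ± 0.519 FPKM in Ly6Glow, with NL at 6.34 ± 0.560. *Nlrc4* was the least abundant of the 8 in all 3 groups, at 1.61 ± 0.212 FPKM in Ly6Ghi, 0.630 ± 0.0721 in Ly6Glow and 3.22 ± 0.166 in NL.

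**Figure D2:**
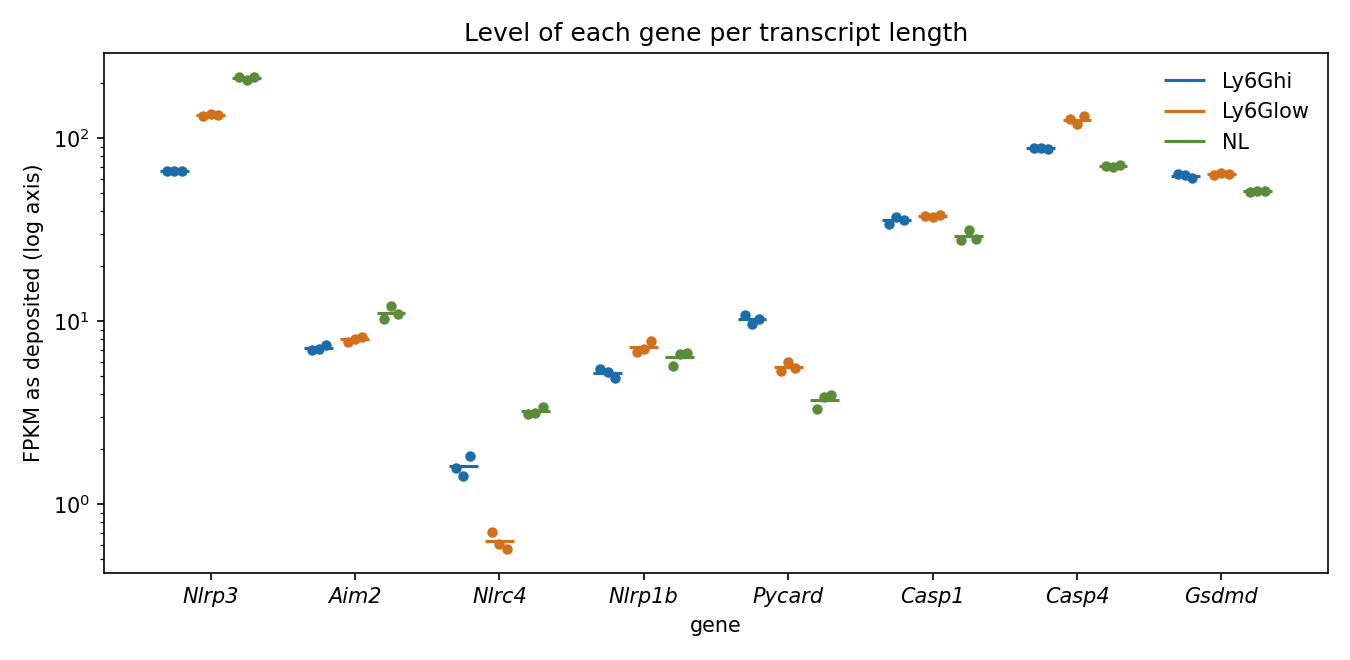
Deposited FPKM (log axis) of each gene, with 1 point per library and a line at the group mean. *Nlrp3* led in NL at 215 FPKM and *Casp4* led in Ly6Ghi at 88.1 FPKM, and *Nlrc4* was lowest in every group.

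A ratio of 2 genes within a library does not depend on how libraries are scaled. The FPKM of the sensor gene *Nlrp3* over that of the adaptor gene *Pycard* was 6.12, 6.84 and 6.42 in Ly6Ghi, 24.9, 22.7 and 24.2 in Ly6Glow, and 65.5, 53.9 and 54.6 in NL. The 3 groups did not overlap in this ratio. *Nlrp3* over *Nlrc4* was 41.4 ± 5.19 in Ly6Ghi, 215 ± 25.0 in Ly6Glow and 66.8 ± 3.20 in NL, again without overlap. *Casp4* over *Casp1* was 2.48 ± 0.123 in Ly6Ghi, 3.37 ± 0.149 in Ly6Glow and 2.44 ± 0.192 in NL, with Ly6Ghi and NL overlapping. *Gsdmd* over *Casp1* was 1.76 ± 0.113, 1.70 ± 0.0344 and 1.77 ± 0.112, and the 3 groups overlapped. These ratios are descriptions without a test.

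Upstream sequence is shown for 4 genes, namely *Nlrp3* and *Pycard*, which moved in opposite directions in 2 of the comparisons, and the neighbours *Casp1* and *Casp4*. Promoter windows of 250 bases before and 50 after a start were taken from a table of RefSeq promoters (build GRCm38.p6) for 7 of the 8 genes, and that of *Gsdmd* was not analysed here. Each line gives the 120 bases before a start, 5′ to 3′ on the strand of the gene, and all 4 lie just outside the annotated gene. The *Nlrp3* window is chr11:59541449-59541568 (plus strand), the *Pycard* window chr7:127993868-127993987 (minus strand), the *Casp1* window chr9:5298397-5298516 (plus strand) and the *Casp4* window chr9:5308729-5308848 (plus strand). *Casp1* ends at position 5307281 of chromosome 9 and *Casp4* begins at 5308849, so that 1567 bases separate them and the *Casp4* window lies in this gap.
Nlrp3: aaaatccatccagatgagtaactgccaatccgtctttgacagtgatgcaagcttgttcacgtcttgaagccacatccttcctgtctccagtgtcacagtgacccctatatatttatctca
Pycard: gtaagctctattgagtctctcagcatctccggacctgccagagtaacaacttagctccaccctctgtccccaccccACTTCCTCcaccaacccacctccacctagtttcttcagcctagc
Casp1: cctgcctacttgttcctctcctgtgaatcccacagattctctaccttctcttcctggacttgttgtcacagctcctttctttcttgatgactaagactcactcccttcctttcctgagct
Casp4: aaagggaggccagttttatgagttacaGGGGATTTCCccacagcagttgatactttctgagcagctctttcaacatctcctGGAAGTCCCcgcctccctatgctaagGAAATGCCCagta
Capitals mark matches to motifs that were chosen after the sequences had been read and were shortened after a first search with longer forms. These were the NF-kB-like GGGNNTTTC and GGGNNTTCC, the interferon regulatory factor-like GAAANNGAA and the ETS-like GAGGAAGT, searched on both strands. In *Casp4*, the first NF-kB-like motif matched from base -93 to -85 and, on the opposite strand, from -13 to -5 of the start. The second matched from -92 to -84, overlapping the first, and on the opposite strand from -39 to -31. In *Pycard* the ETS-like motif matched on the opposite strand from -44 to -37. Among the genes whose sequence is not shown, it also matched before a start of *Aim2* (-113 to -106) and of *Nlrp1b* (-96 to -89). The shown stretches of *Nlrp3* and *Casp1* held none of these letters, but a further annotated start of *Nlrp3*, inside the gene, had the second NF-kB-like motif from -94 to -86. Before the shown stretch of *Nlrp3*, that motif also matched on the opposite strand from -185 to -177. The first NF-kB-like motif matched in *Aim2* from -154 to -146. Of all full promoter windows, 4.36% held the first and 5.82% the second. Among 32851 promoter windows of RefSeq genes shortened to the same 120 bases, 1.82% held the first NF-kB-like motif, 2.67% the second, 3.11% the interferon regulatory factor-like motif and 1.33% the ETS-like motif. A match is a description of letters and not of binding.

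The values of each gene are given by role, first the sensors. *Nlrp3* (gene ID 216799, chr11:59541569-59566955), the sensor that responds to potassium efflux and many kinds of cell damage, was at 270.4, 269.9 and 271 CPM in Ly6Ghi, 642, 655 and 649 CPM in Ly6Glow, and 651, 614 and 647 CPM in NL. The 3 Ly6Ghi libraries lay far below the other 6, which overlapped. *Aim2* (gene ID 383619, chr1:173349547-173466040), which binds cytosolic double-stranded DNA, was at 28.0, 28.3 and 29.5 CPM in Ly6Ghi, 36.2, 37.5 and 38.5 in Ly6Glow, and 28.1, 33.1 and 28.9 in NL. Ly6Glow was highest, and Ly6Ghi and NL overlapped. *Nlrc4* (gene ID 268973, chr17:74426255-74459144), which responds to flagellin and bacterial secretion proteins through NAIP partners, was at 6.58, 6.08 and 7.86 CPM in Ly6Ghi, 3.74, 3.09 and 2.90 in Ly6Glow, and 9.57, 9.49 and 10.3 in NL, and the 3 groups were apart. *Nlrp1b* (gene ID 637515, chr11:71152574-71242514), the target of anthrax lethal factor, was at 24.3, 23.4 and 21.79 CPM in Ly6Ghi, 35.8, 37.3 and 40.9 in Ly6Glow, and 18.5, 21.2 and 21.77 in NL. Ly6Glow was highest, and the lowest Ly6Ghi library lay just above the highest NL library. Reads of *Nlrp1b* can be shared with its close paralog *Nlrp1a*, the gene is polymorphic between strains, and its count is therefore uncertain.

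The adaptor and effectors differed in another way. *Pycard* (gene ID 66824, chr7:127991373-127993867), the adaptor that joins sensor and caspase, was at 23.7, 21.2 and 22.7 CPM in Ly6Ghi, 13.9, 15.5 and 14.4 in Ly6Glow, and 5.34, 6.11 and 6.35 in NL. Its order, Ly6Ghi over Ly6Glow over NL, was shared by none of the other 7 genes. *Casp1* (gene ID 12362, chr9:5298517-5307281) was at 52.4, 57.4 and 55.1 CPM in Ly6Ghi, 68.2, 67.7 and 68.8 in Ly6Glow, and 31.3, 34.9 and 31.5 in NL. *Casp4* (gene ID 12363, chr9:5308849-5336791) was at 126, 126 and 124 CPM in Ly6Ghi, 209.6, 199 and 222 in Ly6Glow, and 71.8, 70.3 and 73.2 in NL. *Gsdmd* (gene ID 69146, chr15:75862144-75867408) was at 115, 112 and 108 CPM in Ly6Ghi, 132, 136 and 135 in Ly6Glow, and 66.4, 66.3 and 68.3 in NL. Both caspase genes and the pore gene thus had 1 order, Ly6Glow over Ly6Ghi over NL, with no overlap between neighbours. All coordinates are of GRCm38.p6.

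**Figure D3:**
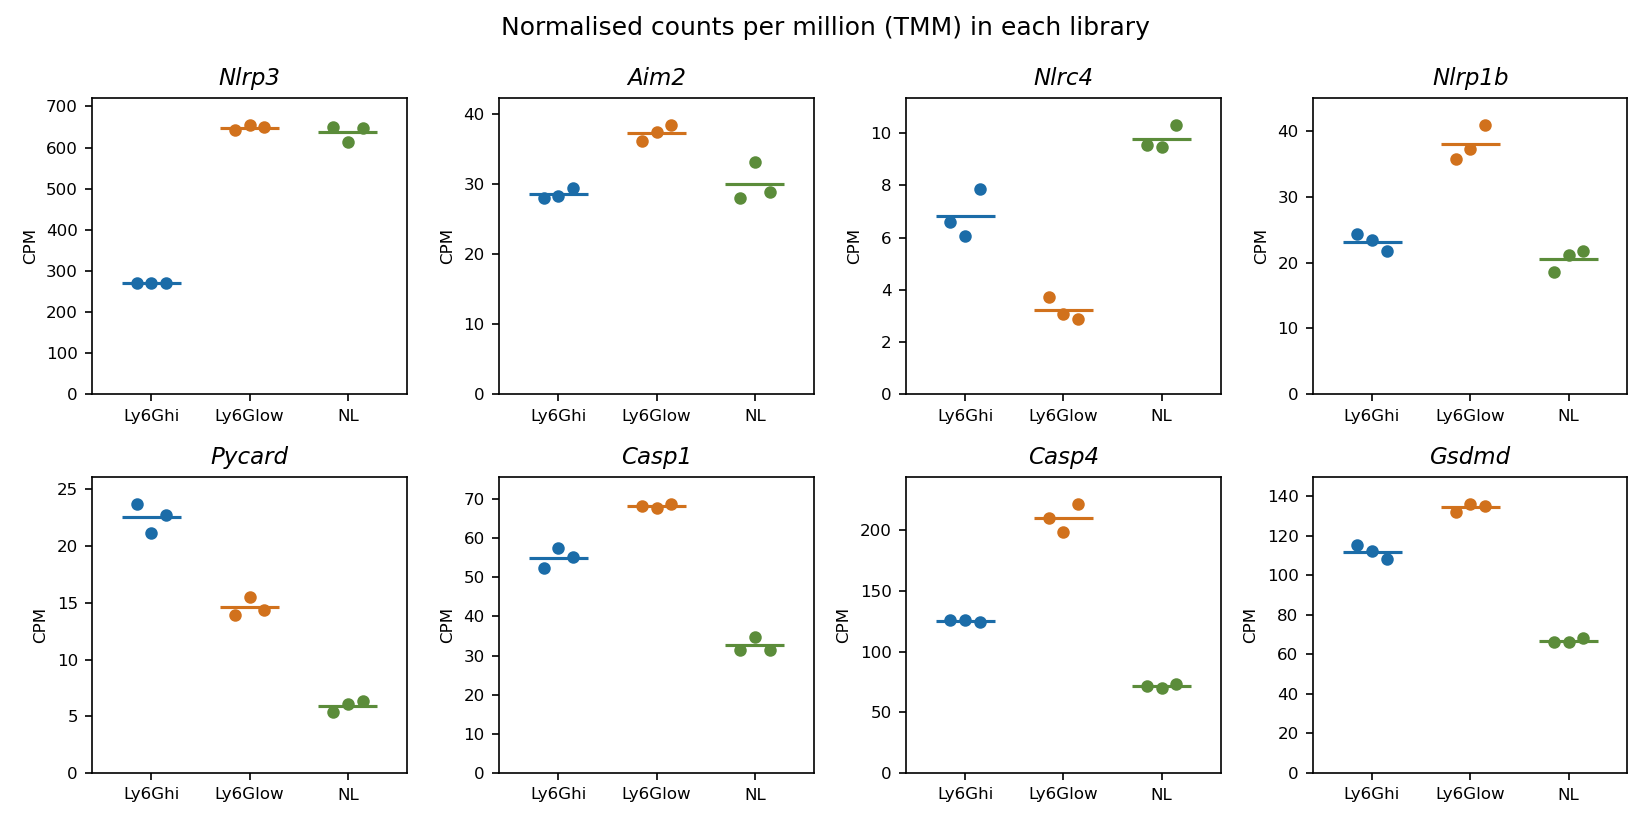
CPM of the 8 genes in each library, with 1 point per library and a line at the group mean. *Nlrp3* was lowest in Ly6Ghi (270.5 CPM against 648 and 637), *Pycard* was highest there, and *Casp1*, *Casp4* and *Gsdmd* were highest in Ly6Glow and lowest in NL.

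The comparison of Ly6Glow with Ly6Ghi asked how the neutrophil subsets of macrometastatic lung differ. *Nlrp3* was higher in Ly6Glow, with a log2 fold change of 1.26 ± 0.03 (± SE from edgeR; adjusted p = 3.15e-18), and 98.6% of all tested genes had a smaller value. *Casp4* was higher by 0.75 ± 0.04 (edgeR adjusted p = 9.36e-13) and *Nlrp1b* by 0.71 ± 0.07 (edgeR adjusted p = 2.35e-08). *Nlrc4* was lower, with a log2 fold change of -1.08 ± 0.15 (edgeR adjusted p = 1.90e-06), and so was *Pycard*, with -0.62 ± 0.08 (edgeR adjusted p = 8.48e-07). The sensor gene *Nlrp3* and the adaptor gene thus moved in opposite directions. *Aim2* at 0.39 ± 0.07, *Casp1* at 0.31 ± 0.05 and *Gsdmd* at 0.27 ± 0.04 lay under the fold-change threshold of 0.58 and were not called, although their groups did not overlap and their edgeR adjusted p were 3.81e-05, 2.54e-05 and 5.01e-06. On the FPKM scale the groups of *Casp1* and *Gsdmd* overlapped, with mean ratios of 1.05 and 1.02.

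In all, 5 of the 8 genes were called, 3 higher and 2 lower, beside 25.2% of all tested genes (9.29% higher and 15.9% lower). The median log2 fold change was 0.35 over the 8 genes and -0.04 over all genes. Groups that do not overlap were common, at 62.1% of all tested genes in this comparison. The scaling mattered for the smaller changes. With libraries scaled by total counts alone, an alternative chosen after seeing the data, the median of all genes moved to -0.28, the calls of all genes went from 1310 higher and 2250 lower to 570 higher and 3730 lower, and 3 of the 8 genes were called, with *Casp4* at 0.51 and *Nlrp1b* at 0.48 no longer among them. *Pycard* lost its call with DESeq2's size factors (-0.56) and in DESeq2 (-0.57). A change of scaling in edgeR shifts all genes nearly alike, so values measured from the median of all genes are almost fixed by construction and say nothing of stability. Measured so, *Nlrp3* stood at 1.30 and *Pycard* at -0.58 in edgeR, and at 1.26 and -0.61 in limma on FPKM with a pseudocount of 0.1.

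The comparison of Ly6Ghi with NL asked what differs between Ly6g-high neutrophils of macrometastatic and normal lung. *Pycard* was 3.79-fold higher in Ly6Ghi, a log2 fold change of 1.92 ± 0.09 (± SE from edgeR; adjusted p = 3.76e-15). *Casp4* was higher by 0.80 ± 0.04 (edgeR adjusted p = 9.80e-14), *Casp1* by 0.75 ± 0.05 (edgeR adjusted p = 1.56e-11) and *Gsdmd* by 0.74 ± 0.04 (edgeR adjusted p = 1.20e-13). *Nlrp3* was 2.36-fold lower, with a log2 fold change of -1.24 ± 0.03 (edgeR adjusted p = 2.60e-19). The adaptor, both caspases and the pore gene were thus higher in the libraries in which *Nlrp3* was lower. This contrast does not extend to every sensor gene, since *Mefv*, described below, was called higher in Ly6Ghi than in NL, at 0.72. *Nlrc4* at -0.52 ± 0.11 and *Nlrp1b* at 0.18 ± 0.07 were under the fold-change threshold, with edgeR adjusted p of 0.000143 and 0.0303. *Aim2* at -0.07 ± 0.06 did not pass the test (edgeR adjusted p = 0.307), and its value was 0.0095 without NL replicate 2, the library with the highest *Aim2* of that group. It was further below 0 with upper-quartile factors (-0.26), with total counts alone (-0.54) and in limma on FPKM with a pseudocount of 1 (-0.57), and was called lower with a pseudocount of 0.1 (-0.63). The call of *Nlrc4* rested on the settings, since it was called lower without Ly6Ghi replicate 3 (-0.62), with total counts alone (-0.98), with upper-quartile factors (-0.71), with at least 10 counts in every library (-0.69) and in limma on FPKM (-0.69 with a pseudocount of 1 and -0.96 with 0.1).

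Of the 8 genes, 5 were called, 4 higher and 1 lower, beside 62.9% of all tested genes (26.3% higher and 36.6% lower), so the share called was close to that of all genes. The median was 0.46 over the 8 genes and -0.09 over all genes, and 85.2% of all genes had groups without overlap. Directions of the smaller changes rested on the scaling. With total counts alone, the median of all genes was -0.55 and the calls of all genes went from 3712 higher and 5162 lower to 1742 higher and 6847 lower. *Casp1* (0.29), *Casp4* (0.34) and *Gsdmd* (0.27) then lost their calls and *Nlrp1b* turned to -0.29, while *Pycard* stayed called higher at 1.46 and *Nlrp3* lower at -1.70. Under upper-quartile normalization the median of all genes was -0.28, *Casp1* at 0.56 and *Gsdmd* at 0.55 fell under the threshold and *Nlrp1b* turned to -0.015. Measured from the median of all genes in edgeR and in limma on FPKM with a pseudocount of 0.1, *Casp1* stood at 0.80 to 0.84. *Casp4* stood at 0.83 to 0.89, *Gsdmd* at 0.80 to 0.83, *Pycard* at 1.95 to 2.01 and *Nlrp3* at -1.18 to -1.15. The edgeR values in these ranges are almost fixed by construction, as stated above, and the ranges say nothing of stability. The marker sums of neutrophils and of structural, macrophage and dendritic cells given above also separate NL from Ly6Ghi. Of 6 eosinophil markers, 5 were called higher in Ly6Ghi and none lower (median 5.03). Of 6 tested basophil and mast cell markers, 5 were called higher and 1 lower (median 1.80). The part of all these cells in the differences was not tested.

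Ly6Glow and NL differ both in sort label and in tissue state, which cannot be told apart here, and the comparison shares its libraries with the 2 above. *Casp4* was 2.93-fold higher in Ly6Glow, a log2 fold change of 1.55 ± 0.04 (± SE from edgeR; adjusted p = 4.71e-19). *Pycard* was higher by 1.30 ± 0.10 (edgeR adjusted p = 3.09e-11), *Casp1* by 1.07 ± 0.05 (edgeR adjusted p = 2.96e-14), *Gsdmd* by 1.01 ± 0.04 (edgeR adjusted p = 4.27e-16) and *Nlrp1b* by 0.89 ± 0.07 (edgeR adjusted p = 1.00e-10). *Nlrc4* was 3.03-fold lower, with a log2 fold change of -1.60 ± 0.13 (edgeR adjusted p = 2.59e-10). The effector genes were thus higher and 1 sensor gene was lower. *Nlrp3* did not pass the test at 0.03 ± 0.03 (edgeR adjusted p = 0.449), and *Aim2* at 0.32 ± 0.06 was under the fold-change threshold (edgeR adjusted p = 0.000101).

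Of the 8 genes, 6 were called, 5 higher and 1 lower, beside 69.5% of all tested genes (28.7% higher and 40.8% lower), and 86.8% of all genes had groups without overlap. The median was 0.95 over the 8 genes and -0.16 over all genes. The position of *Nlrp3* depended on the scaling, since it was called lower in Ly6Glow with total counts alone, at -0.68, and in limma on FPKM with a pseudocount of 0.1, at -0.67, and turned to -0.16 under upper-quartile normalization. *Aim2* turned to -0.38 with total counts alone, and *Casp1* (0.37), *Gsdmd* (0.30) and *Nlrp1b* (0.19) then lost their calls. *Pycard* went to 0.60 with total counts alone and to 0.59 in limma on FPKM with a pseudocount of 0.1, and lost its call with a pseudocount of 1 (0.49). With total counts alone the median of all genes was -0.86, and the calls of all genes went from 4049 higher and 5760 lower to 1330 higher and 7996 lower. Measured from the median of all genes in the same way, *Nlrp3*, which did not pass the test with TMM, stood at 0.14 to 0.18. *Casp4* stood at 1.65 to 1.71, *Pycard* at 1.40 to 1.46, *Casp1* at 1.18 to 1.22 and *Gsdmd* at 1.12 to 1.16. *Nlrp1b* stood at 1.00 to 1.05 and *Nlrc4* at -1.44 to -1.38. These ranges too are almost fixed by construction in edgeR and say nothing of stability. The marker sums given above separate NL from Ly6Glow as well, and their part was not tested.

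**Figure D4:**
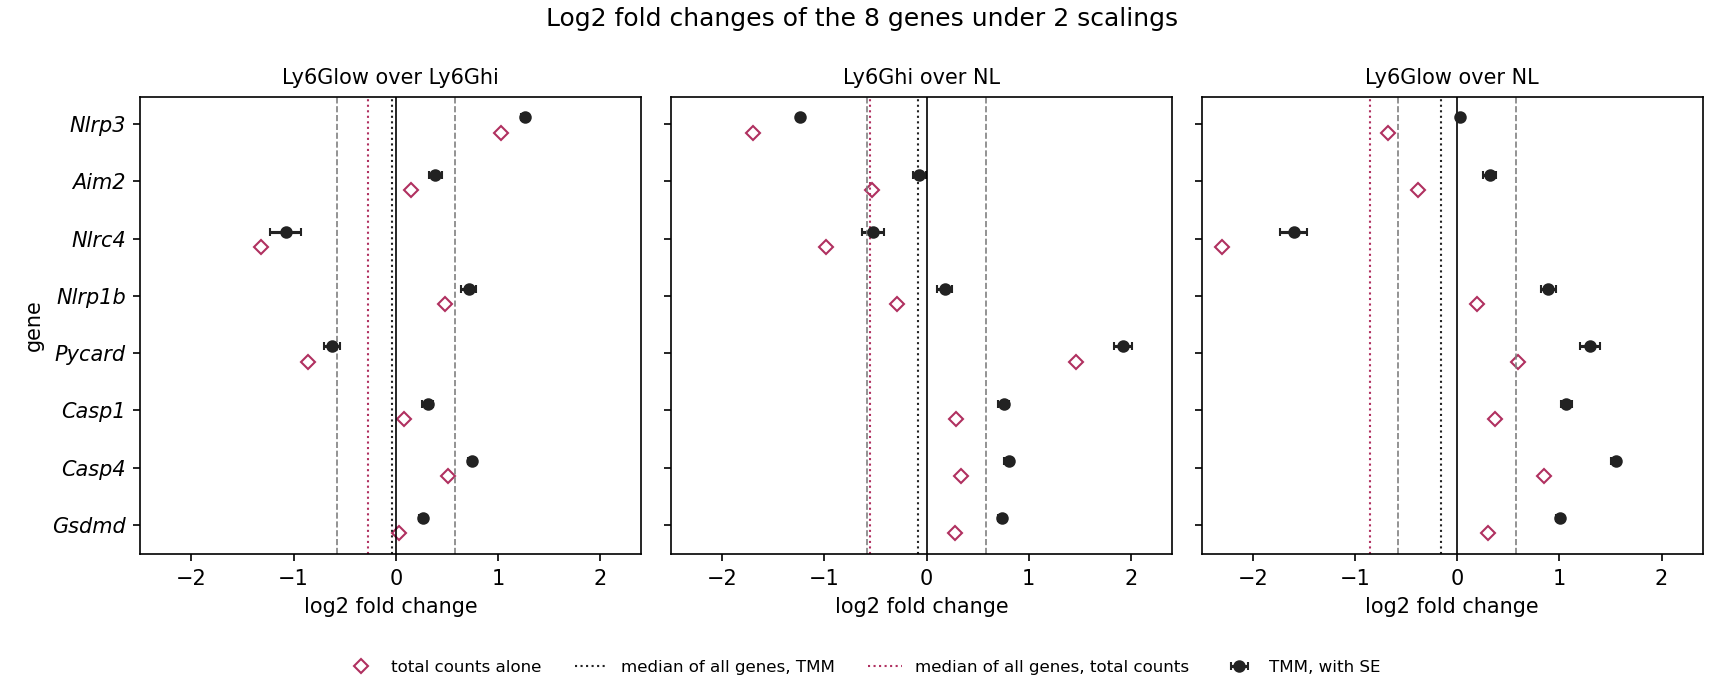
Log2 fold changes of the 8 genes in the 3 comparisons. Filled circles are TMM-scaled values with their SE and open diamonds are values with total counts alone, dashed lines mark the threshold of 0.58 and dotted lines the median of all genes under each scaling. The diamonds and the dotted line shift together, and *Nlrp3* of Ly6Glow over NL moves from 0.03 to -0.68 as the median of all genes moves from -0.16 to -0.86.

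The other genes of the pathway were taken from 12 further lists, with 103 genes tested. In Ly6Glow over Ly6Ghi, 28 were called higher and 12 lower, 38.8% of them against 25.2% of all genes, with a median of 0.22. With total counts alone, 16 were called higher and 22 lower. Ly6Ghi over NL gave 23 called higher and 46 lower (67.0%, against 62.9% of all genes, median -0.38), and 13 and 55 with total counts alone. For Ly6Glow over NL the calls were 31 higher and 43 lower (71.8%, against 69.5% of all genes, median 0.05), and 17 and 56 with total counts alone. The balance of higher and lower calls in Ly6Glow over Ly6Ghi therefore turned with the scaling.

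The substrates and cytokines that inflammasome caspases act on, with their receptors, counted 8 tested genes. In Ly6Glow over Ly6Ghi 5 were called higher and none lower, with a median of 0.79, and 4 higher and 2 lower with total counts alone. *Il1b*, encoding the main caspase-1 substrate of neutrophils, was at 2799 ± 54.3 CPM in Ly6Ghi, 6698 ± 77.2 in Ly6Glow and 4093 ± 43.4 in NL (SD, n = 3). It was higher in Ly6Glow than in Ly6Ghi by 1.26 ± 0.03 (SE; edgeR adjusted p = 1.80e-19). *Il1rn*, the receptor antagonist, was higher by 1.18 ± 0.03 and *Il18bp*, which binds interleukin-18, by 0.65 ± 0.06. *Il18* at -0.51 and *Il1a* at -0.46 were not called. The substrate *Il1b* and its antagonist thus rose together with *Nlrp3*. Against NL, Ly6Ghi had 1 gene called higher, *Il1rap* at 0.79, and 4 lower, among them *Il1r1* at -2.39, *Il18* at -1.71, *Il1rn* at -1.38 and *Il1a* at -1.25, while *Il1b* at -0.55 was under the threshold and was called lower in 7 of 14 other settings, total counts alone among them. With total counts alone, none was called higher and 5 lower. Against NL, Ly6Glow had 3 called higher, among them *Il1rap* at 1.88 and *Il1b* at 0.71, and 3 lower, among them *Il18* at -2.23 and *Il1a* at -1.71, against 1 higher and 4 lower with total counts alone. This call of *Il1b* was lost in 7 of 14 other settings, and its value did not pass the test with total counts alone.

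Of 12 other sensors tested, 3 were called higher and 4 lower in Ly6Glow over Ly6Ghi. *Mefv*, encoding the sensor pyrin, was higher by 1.01 ± 0.03 (SE; edgeR adjusted p = 1.33e-16), at 296 ± 6.57 CPM in Ly6Ghi and 596 ± 3.71 in Ly6Glow. *Naip5*, which recognises flagellin for NLRC4, was lower, with -0.95 ± 0.09 (edgeR adjusted p = 6.71e-09). *Naip5* and *Nlrc4*, parts of the same inflammasome, were thus both lower. In the same comparison 9 of 12 alveolar macrophage markers (median -3.83) and 5 of 6 eosinophil markers (median -2.84) were called lower, and the part of these cells in any difference between Ly6Glow and Ly6Ghi was not tested. Calls in Ly6Ghi over NL were 3 higher and 4 lower, from *Nlrx1* at 2.29 to the DNA-binding *Ifi204* at -1.73, with *Mefv* at 0.72 and *Naip5* at -0.86. This call of *Mefv* was lost in 7 of 14 other settings, total counts alone among them. Calls in Ly6Glow over NL were 4 higher and 6 lower, from *Nlrp12* at 2.52 to *Naip6* at -2.95, with *Mefv* at 1.73 and *Naip5* at -1.81. The *Naip* genes are near-identical copies whose reads can be split between them, so their counts are uncertain.

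Of 12 sensor regulators, 1 was called in Ly6Glow over Ly6Ghi, *Brcc3*, which removes ubiquitin from NLRP3, at -0.64. The direction of calls turned with the scaling, to 2 higher and none lower with DESeq2's size factors and none higher and 3 lower with total counts alone. *Nek7*, the kinase that NLRP3 needs to assemble, was not called by edgeR with TMM in any comparison, at 0.07, 0.44 and 0.51 in the order Ly6Glow over Ly6Ghi, Ly6Ghi over NL and Ly6Glow over NL, and all 3 values turned below 0 with total counts alone. It was called higher in Ly6Glow over NL in 3 of 14 other settings and in Ly6Ghi over NL in 1, that without a fold-change threshold. Of these regulators, 3 were called higher and 5 lower in Ly6Ghi over NL, from *Card9* at 1.55 to *Tmem176a* at -1.55. As many were called in Ly6Glow over NL, from *Card9* at 1.75 to *P2rx7*, the ATP-gated channel upstream of NLRP3, at -1.65.

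The guanylate-binding proteins, interferon-induced GTPases that expose bacterial lipopolysaccharide to caspase-11, counted 11 tested genes. All 11 were called lower in Ly6Ghi than in NL, with a median of -3.10, from *Gbp7* at -1.56 to *Gbp10* at -4.23, and under each of 4 scalings in edgeR and in limma on FPKM with a pseudocount of 0.1. *Gbp2* fell from 380.3 ± 8.14 CPM in NL to 84.8 ± 1.60 in Ly6Ghi, and *Gbp5*, which also promotes NLRP3 assembly, from 112 ± 1.26 to 11.8 ± 1.28 CPM (SD, n = 3). All 11 were also called lower in Ly6Glow than in NL, with a median of -2.47, from *Gbp7* at -0.72 to *Gbp10* at -4.46, again under each of these settings. *Casp4* thus lay higher, and these genes lower, in the libraries of macrometastatic lung. Between the subsets, 4 of 11 were called higher and none lower in Ly6Glow over Ly6Ghi (median 0.42), *Gbp2* at 1.20, *Gbp2b* at 1.11, *Gbp5* at 0.90 and *Gbp7* at 0.84. The family has near-identical members, and single counts are uncertain.

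Interferon-stimulated genes were also mostly lower in macrometastatic lung. Of 11 tested, 10 were called lower and none higher in Ly6Ghi over NL (median -2.56), from *Irf7* at -0.86 to *Rsad2* at -4.80. Of the same genes, 7 were called lower in Ly6Glow over NL (median -1.22), from *Isg15* at -1.05 to *Rsad2* at -3.62. With total counts alone all 11 were called lower in both comparisons with NL. Between the subsets, 8 were called higher and none lower in Ly6Glow over Ly6Ghi (median 0.78), from *Oasl1* at 0.62 to *Isg15* at 1.52, against 5 higher and 1 lower with total counts alone, and *Oasl1* fell to 0.57, under the threshold, without Ly6Ghi replicate 3. The sums of dendritic cell and macrophage markers, highest in NL, moved with these lists in the comparisons with NL but not in Ly6Glow over Ly6Ghi. The part of these cells was not tested. The DNA sensing list held 6 genes, of which 5 were tested. *Sting1* was not found under that symbol and was left out. All 5 tested genes were called lower in Ly6Ghi than in NL (median -1.41), *Ifi203* at -2.03, *Ifi205* at -1.90, *Zbp1* at -1.41, *Trex1* at -0.89 and *Cgas* at -0.65. Of the 5, 4 were also lower in Ly6Glow over NL (median -0.88), *Ifi203* at -2.30, *Ifi205* at -2.23, *Cgas* at -0.88 and *Zbp1* at -0.69. In Ly6Glow over Ly6Ghi 1 was called, *Zbp1*, higher by 0.72, and none with total counts alone.

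Among 14 priming receptors and transcription factors, 5 were called higher and 1 lower in Ly6Glow over Ly6Ghi (median 0.46), while none was called higher and 2 lower with total counts alone. *Tlr4*, the lipopolysaccharide receptor, was higher by 0.76, and *Irf1*, an interferon-induced activator of several inflammasome genes, by 0.68, while *Irf8* was lower at -0.96. *Irf2*, known to drive *Gsdmd* transcription, was not called at 0.44. In Ly6Ghi over NL 5 were called higher and 1 lower, from *Ifngr1* at 1.65 to *Irf8* at -2.33, with *Irf2* at 0.77 and *Irf1*, at -0.56, not called, and the balance turned to 3 higher and 6 lower with total counts alone. In Ly6Glow over NL 6 were called higher and 1 lower, from *Ifngr1* at 2.02 to *Irf8* at -3.28, with *Irf2* at 1.20 and *Irf1*, at 0.13, not called, and it turned to 3 higher and 4 lower with total counts alone.

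*Gsdme*, encoding gasdermin E, was at 139 ± 1.21 CPM in Ly6Ghi, 141 ± 0.874 in Ly6Glow and 15.1 ± 0.446 in NL. It was higher by 3.21 ± 0.05 (SE; edgeR adjusted p = 1.97e-23) in Ly6Ghi and by 3.23 ± 0.05 (edgeR adjusted p = 1.60e-23) in Ly6Glow than in NL, and was not called between the latter groups (0.02). *Ninj1*, whose product ruptures the membrane after pore formation, was higher in Ly6Glow than in Ly6Ghi by 0.87 ± 0.06 (edgeR adjusted p = 1.09e-11) and than in NL by 1.00 ± 0.05, and was not called in Ly6Ghi over NL (0.12). Besides *Gsdmd*, 4 gasdermin and rupture genes were tested, these 2 included, and 1 was called in Ly6Glow over Ly6Ghi, 2 in Ly6Ghi over NL and 3 in Ly6Glow over NL, all higher, of which 2 were left with total counts alone. The call of *Ninj1* in Ly6Glow over NL was lost in 5 of 14 other settings.

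Among other caspases and death adaptors, *Casp8*, *Fadd* and *Ripk1* had an unadjusted p under 0.05 in Ly6Glow over Ly6Ghi. Their changes lay under the fold-change threshold, and edgeR with TMM called none of these 3. With total counts alone, 1 of the 6 genes of this list was called lower in this comparison and none higher. *Casp12* (-2.04) and *Fadd* (-0.87) were lower in Ly6Ghi than in NL, and both were also called lower in Ly6Glow over NL, *Fadd* at -1.29. In each of these 2 comparisons 1 gene of the list was called higher, and the medians of the list were 0.03 and 0.08. Of 5 necroptosis genes, *Mlkl*, encoding the pore-forming effector of necroptosis, was called lower in all 3 comparisons, at -1.02, -0.96 and -1.98, at a low level of 1.73 to 6.84 CPM. *Ripk3*, its kinase, was at 0.03, 0.579 and 0.61. With TMM it was called in Ly6Glow over NL alone, where it turned to -0.088 with total counts alone. Its value in Ly6Ghi over NL lay just under the threshold of 0.58 and was called in 5 of 14 other settings. *Cyld* was higher than in NL by 0.87 in Ly6Ghi and 1.11 in Ly6Glow, and no necroptosis gene was called higher with total counts alone.

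Neutrophil serine proteases can cleave gasdermin D or interleukin-1 beta without caspase-1. Of 6 genes of these proteases and their serpin inhibitors, 5 were called lower in Ly6Glow than in Ly6Ghi (median -1.70), *Elane* at -2.83, *Prtn3* at -2.25, *Ctsg* at -2.02, *Serpinb1a* at -1.38 and *Serpinb6a* at -0.63. In Ly6Ghi over NL 4 were called higher, *Prtn3* at 5.60, *Elane* at 4.74, *Ctsg* at 4.72 and *Serpinb1a* at 3.23, and 2 lower, *Serpinb6a* at -1.24 and *Serpinb9* at -2.67. In Ly6Glow over NL 4 were called higher, *Prtn3* at 3.35, *Ctsg* at 2.71, *Elane* at 1.91 and *Serpinb1a* at 1.85, and 2 lower, *Serpinb6a* at -1.87 and *Serpinb9* at -2.79. *Elane* is also in the neutrophil marker list. *Elane*, *Ctsg*, *Prtn3* and *Serpinb1a* thus had the order of *Pycard*, Ly6Ghi over Ly6Glow over NL. In Ly6Ghi over NL, *Elane* and *Ctsg* each had values in only 13 other settings, and kept their calls in all of these. In Ly6Glow over NL, *Elane* lost its call in 2 of 13 other settings and *Ctsg* in 2 of 12. Both genes had values in fewer settings than *Prtn3*, so their changes were checked less fully. Of 10 membrane repair genes of the ESCRT machinery, which removes gasdermin pores, 1 was called in Ly6Glow over Ly6Ghi, *Vps4b*, higher by 0.80, against none higher and 1 lower with total counts alone. In Ly6Ghi over NL 3 were called higher, among them *Chmp2a* at 0.83 and *Pdcd6* at 0.64, and *Chmp4c* lower at -2.47, against none higher and 1 lower with total counts alone. In Ly6Glow over NL 5 were called higher, among them *Chmp4b* at 1.14 and *Vps4b* at 0.70, and *Chmp4c* lower at -4.43, with none higher and 2 lower with total counts alone.

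**Figure D5:**
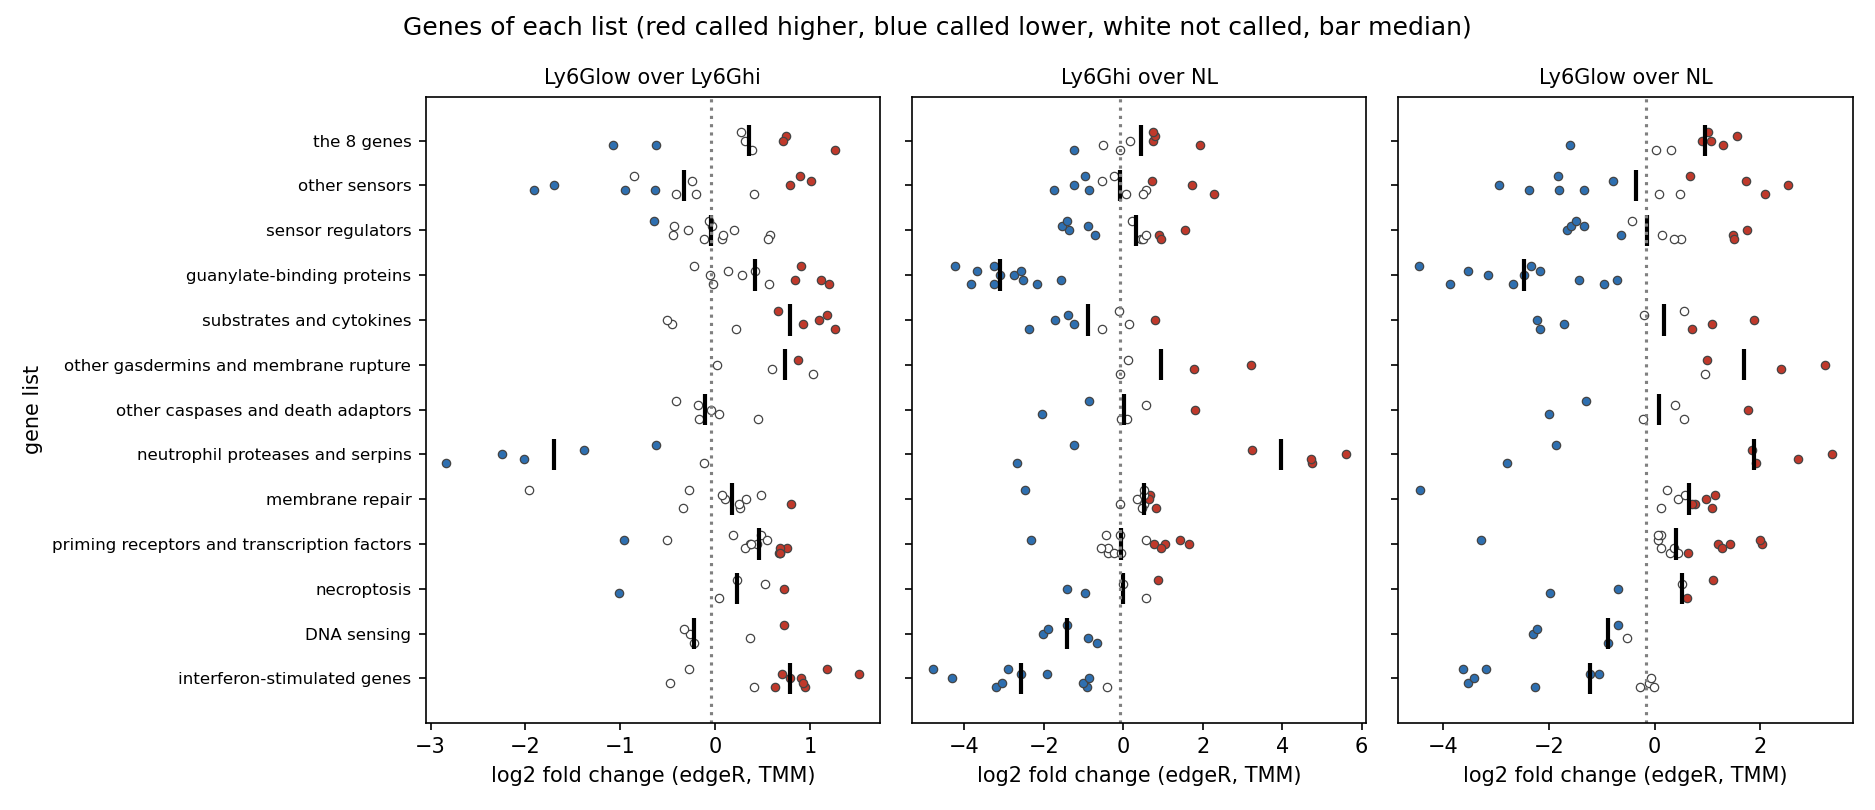
Log2 fold changes (edgeR, TMM) of the tested genes of each list in the 3 comparisons, with 1 point per gene (red called higher, blue called lower, white not called), a bar at the list's median and a dotted line at the median of all genes. All 11 guanylate-binding protein genes lay on the lower side in both comparisons with NL, with medians of -3.10 and -2.47.

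The genes whose pattern over the 9 libraries lay nearest to each of the 8 were found as the smallest root-mean-square difference of centred log2 CPM. For *Nlrp3* these were *Slc15a3* (0.0483), *Rabgef1* (0.0556) and *Tmem132a* (0.0622). For *Pycard* they were *Wipi1* (0.0812), *Mgst2* (0.0850) and *Mcu* (0.0951). For *Nlrc4* they were *Pigk* (0.116), *Gde1* (0.125) and *Farsa* (0.132). For *Casp4* they were *Prkaa1* (0.0426), *Cers6* (0.0431) and *Prnp* (0.0539). The patterns of these 4 genes were uncommon, since 0.568%, 1.19%, 0.852% and 5.84% of the genes compared lay within 0.2 of *Nlrp3*, *Pycard*, *Nlrc4* and *Casp4*. For *Casp1* the nearest were *Mpp5* (0.0239), *Rsrc2* (0.0416) and *Napg* (0.0428), and for *Gsdmd* *Zdhhc9* (0.0273) and *Cers2* (0.0308). For *Aim2* they were *Top1* (0.0440), *Taf7* (0.0441) and *Ddx50* (0.0453), and for *Nlrp1b* *Gpbp1* (0.0626), *Sfxn5* (0.0818) and *Il10rb* (0.0820). Within 0.2 of these lay 20.7% of the genes compared for *Casp1*, 23.3% for *Gsdmd*, 12.6% for *Aim2* and 8.12% for *Nlrp1b*, so many genes shared the patterns of *Casp1* and *Gsdmd*.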

How the data were processed

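RNA from 9 sorted neutrophil samples (3 groups of 3) was sequenced by the authors as poly(A), strand-specific libraries, read as 150-base pairs, on build mm10 per the labels. The aligner, the counter and its strand setting are not given in the sources used here. The authors deposited estimated counts per gene, of which 37.9% were whole, and FPKM per gene. Of 22064 genes listed, 3739 were blank. Counts were rounded and tested with edgeR 4.0.16 (quasi-likelihood F test, TMM factors, filterByExpr) in R 4.3.3, in 1 model of all 9 libraries, and Benjamini-Hochberg adjustment covered 14108 genes. Calls needed an adjusted p no higher than 0.05 together with a log2 fold change beyond 0.58 in either direction. The scripts were tested on simulated data. An exact permutation of 3 against 3 libraries cannot go below p = 0.1, so none was used. CPM are counts scaled to TMM library size. FPKM served for levels between genes.

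Alternatives were DESeq2 1.42.0, limma 3.58.1 on log2 FPKM, other size factors, filters and thresholds, a replicate block, and each library left out. Scaling by total counts alone was chosen after seeing the data. Named genes were the 8 members, *Ly6g*, 15 fixed pathway genes, the called genes with the largest and smallest change in each list at 10 CPM or more, all genes of lists of up to 6, the 3 nearest genes of each member among genes of at least 10 CPM, and the top marker of each cell type. Other genes named in lists were chosen after their values were seen. The members and lists were chosen with earlier results of these data known. Some genes that met these rules are not reported here, and they stayed in the counts and sums of their lists.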

Additional observations from a re-analysis of the deposited data

How the results depend on the processing

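The 24 log2 fold changes of the 8 genes were recomputed under 14 other settings and with each of 9 libraries left out, which gave 552 values, of which 476 kept direction and call, 46 lost the call, 14 gained it and 16 reversed. With libraries left out, 5 to 5, 5 to 6 and 6 to 6 of the 8 genes were called in Ly6Glow over Ly6Ghi, Ly6Ghi over NL and Ly6Glow over NL, 39 to 42, 70 to 73 and 73 to 77 pathway genes, and 3387 to 3613, 8875 to 9081 and 9805 to 9983 of all genes. Of the 138 named values, 1233 of 1242 recomputed with a library left out kept direction and call, as did 1647 of 1924 under other settings. With a library left out, *Ripk3* of Ly6Ghi over NL passed the threshold in 5 of 9 fits, at 0.59 to 0.62. It was also called in 5 of 14 other settings.

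In Ly6Glow over Ly6Ghi, 3 of the 8 genes were called with total counts alone and in each limma fit, 8 without a fold-change threshold and 2 at a threshold of 1, against 5. Pathway calls went from 40 to 76 and 15 under these thresholds. All calls went from 3560 to 7868 and 1305, to 2243 (317 higher, 1926 lower) in limma on log2(FPKM + 1) and 2223 (320, 1903) with its filter, and split 520 to 3606 at a pseudocount of 0.1. In Ly6Ghi over NL, 3 of the 8 were called with total counts alone, in limma on log2(FPKM + 1) and with its filter, and 2 at a threshold of 1, and all calls split 1436 to 5162, 1426 to 4652 and 1826 to 7625 in limma at pseudocount 1, with the filter and at pseudocount 0.1. In Ly6Glow over NL, 3 of the 8 were called in limma on log2(FPKM + 1) and with its filter, against 6, and all calls split 1128 to 6473, 1120 to 5845 and 1401 to 8909. The cause was not tested.

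Reversed values are given for total counts alone, then limma on FPKM at pseudocount 1, at 0.1 and with the filter. In Ly6Glow over Ly6Ghi they were -0.22, -0.21, -0.22 and -0.21 for *Gsdme* (-0.0019 without a filter), -0.17, -0.16, -0.16 and -0.16 for *Nek7*, and -0.20, -0.20, -0.21 and -0.20 for *Ripk3* (-0.0056 without Ly6Ghi replicate 2, 0.058 without replicate 1). In Ly6Ghi over NL they were -0.29, -0.24, -0.27 and -0.24 for *Nlrp1b* (-0.015 with upper-quartile factors), -0.34, -0.33, -0.34 and -0.33 for *Ninj1* (-0.069 with upper-quartile factors, -0.051 with at least 10 counts), and -0.026, -0.028, -0.029 and -0.028 for *Nek7*. *Aim2* was at 0.0095 without NL replicate 2 and -0.12 without NL replicate 1. In Ly6Glow over NL they were -0.68, -0.67, -0.67 and -0.67 for *Nlrp3* (-0.16 with upper-quartile factors and with at least 10 counts), -0.38, -0.43, -0.48 and -0.43 for *Aim2*, -0.20, -0.18, -0.19 and -0.18 for *Nek7*, -0.57 in all 4 for *Irf1* (-0.062 with upper-quartile factors, -0.055 with at least 10 counts) and -0.088, -0.084, -0.088 and -0.084 for *Ripk3*. *Vps4b* was at -0.0015 with total counts alone. The cause was not tested.

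With a replicate block, 3522, 8856 and 9775 genes were called, with 0 changed calls among the 8. Replicate numbers did not pair libraries (r of -0.252 to 0.0964 for equal numbers, -0.284 to 0.358 for others). The p-values measure spread between 3 libraries, which may be technical. Libraries held 15267177 to 17841807 counts, and genes with few counts, such as *Nlrc4*, are measured less well. Reads of near-identical genes (*Nlrp1b*, *Naip*, *Gbp*, *Ifi* families) may be split, and BALB/c reads were counted on a C57BL/6J reference.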
